A study of Homo sapiens with 9 samples.

Results

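The comparison described here set 1 FBXL12 knockout clone of MDA-MB-231 cells against the other. MDA-MB-231 is an established human breast cancer cell line of the basal-like type. The members are the 6 libraries titled FBXL12-KO #1 (KO1, n = 3) and FBXL12-KO #2 (KO2, n = 3), of 9 libraries in the series. The other 3 libraries are from FBXL12-WT cells that received a scrambled control guide RNA (WT), and they took no part in the test. Both clones carry the FBXL12 knockout, so the genotype under study is shared and what is compared is 1 clone with another. They are called clones here, but the labels number them without saying how each was isolated, and the guide RNA and the edited alleles were not analysed here. Each genotype label thus rests on 1 line per number. The labels also number the 3 libraries of a clone and do not say whether separate cultures gave them, so p-values cover the spread among libraries alone, and that spread may be technical. In bulk RNA, fewer cells of a type and less RNA per cell cannot be told apart.

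A cancer cell line is a population of cells that differ in chromosome copy number and in DNA methylation. Cells grown from a single founder share its state. FBXL12 encodes an F-box protein, the subunit through which an SCF ubiquitin ligase binds its substrates. The series title names FANCD2, a protein of DNA crosslink repair, as a substrate and replication stress as the setting, and 2 clones allow a change shared by both to be told from one found in a single clone.

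The clones differed at 8232 of 17398 tested genes, which is 47.3%, at a Benjamini-Hochberg adjusted p under 0.05 in edgeR's quasi-likelihood test. Of these, 4156 (23.9% of tested genes) were higher in KO1 and 4076 (23.4%) were higher in KO2. Most differences were small: the median size of the log2 difference over all tested genes was 0.29, and 1724 genes (9.91%) were called at 2-fold or more, 713 (4.10%) higher in KO1 and 1011 (5.81%) higher in KO2. At 4-fold or more 164 were higher in KO1 and 307 in KO2. The libraries of the clones did not overlap at 9682 genes (55.7%). The first principal component of the 6 libraries held 84.6% of their variance and separated the clones. Total counts ran from 52427841 to 87084329 per clone library, and the biological coefficient of variation was 7.94%. Precision followed level: 27.1% of genes with a mean log2 CPM under 0 were called, against 60.7% of those between 6 and 8. CPM values are counts scaled by library size over all 9 libraries together, and log2 differences are KO1 minus KO2 with their standard errors.

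**Figure D1:**
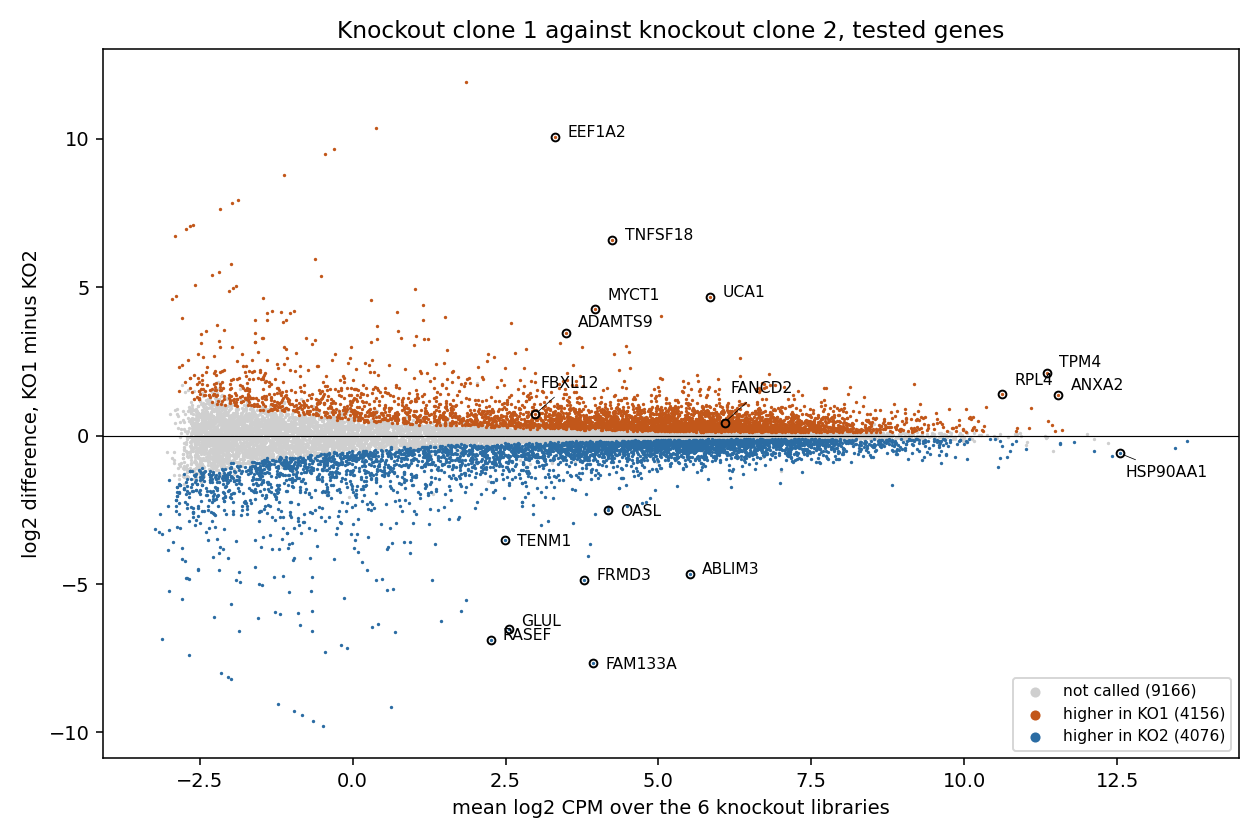
Log2 difference between the clones (KO1 minus KO2, vertical axis) against mean log2 CPM over the 6 knockout libraries (horizontal axis), 1 point a gene. The 4156 genes higher in KO1 and the 4076 higher in KO2 are coloured, the rest are grey, and named genes are circled.

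FBXL12 itself differed between the clones. Its level was 9.56, 9.95 and 9.40 CPM in KO1 and 6.14, 6.36 and 5.33 CPM in KO2, against 22.2, 23.3 and 21.4 CPM in WT. All knockout libraries lay below all control libraries, and the KO2 libraries lay below the KO1 libraries. The difference was 0.71 ± 0.10 (95% interval 0.50 to 0.92; edgeR adjusted p = 5.6e-05). FBXL12 lies on chromosome 19 from 9810267 to 9827816, minus strand (GRCh38). Its 20 nearest tested neighbours had a median difference of 0.31, with 11 higher in KO1 and 6 higher in KO2. A count per gene does not show whether the transcript that remains is edited. FANCD2 was at 77.4 ± 2.08 CPM in KO1 and 57.7 ± 3.09 CPM in KO2 (SD, n = 3), with 68.4 ± 2.46 CPM in WT between them. Its difference was 0.44 ± 0.06 (adjusted p = 3.4e-05), and its neighbourhood on chromosome 3 was higher in KO1 as a whole.

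Among the genes with the largest differences were several that were near the detection limit in 1 clone. EEF1A2 encodes the translation elongation factor isoform normally made in muscle and neurons. It was at 22.4, 16.5 and 18.5 CPM in KO1 and at 26.0, 30.7 and 26.9 CPM in WT, but each KO2 library held 1 count. The ratio of KO1 to KO2 was 1173, with an exact 95% counting interval of 401 to 5687. That interval pools the reads of each clone and leaves out the spread among libraries. In edgeR the log2 difference was 10.04 ± 0.25 (95% interval 9.50 to 10.59). EEF1A1 is a close relative, and the treatment of reads that match both genes was not stated in the labels.

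TNFSF18, the gene of the T cell ligand GITRL, was at 34.8, 39.9 and 35.7 CPM in KO1 and 0.497, 0.364 and 0.315 CPM in KO2. Its difference was 6.58 ± 0.13 (adjusted p = 5.9e-12), and the controls, at 19.8 ± 1.24 CPM (SD, n = 3), lay between the clones. The related ligand gene TNFSF15 was at 12.1 ± 0.587 CPM in KO1, 1.60 ± 0.201 CPM in KO2 and 4.60 CPM in WT. Its neighbourhood on chromosome 9 was higher in KO2 as a whole. UCA1, a long noncoding RNA first described in bladder cancer, was at 110, 113 and 105 CPM in KO1 and 4.73, 4.32 and 3.93 CPM in KO2. MYCT1 and ARMCX2 were also higher in KO1, by 4.26 ± 0.10 and 4.04 ± 0.10. Genes of the cell surface and matrix in the same group were ADAMTS9, a metalloproteinase of the ADAMTS family (3.44), the endothelial receptor gene TIE1 (3.10), the sphingosine-1-phosphate exporter gene SPNS2 (3.02), RELN, which encodes reelin (2.76), and the hyaluronan synthase gene HAS2 (2.74). The other genes of this group were AC006452.1, the polyubiquitin pseudogene UBBP4, LRATD2 and CT62, with differences from 2.77 for CT62 to 3.77 for AC006452.1. Reads of UBBP4 may be shared with other ubiquitin genes.

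In the opposite direction, FAM133A was at 31.6, 31.2 and 30.7 CPM in KO2 and at 0.167, 0.0760 and 0.206 CPM in KO1. WT was near KO1, with 0.521 CPM, so KO2 lay apart from the other groups. GLUL, the gene of glutamine synthetase, was at 13.1, 12.3 and 10.9 CPM in KO2, 0.0513, 0.139 and 0.195 CPM in KO1 and 0.791 ± 0.0822 CPM (SD, n = 3) in WT. Its difference was -6.50 ± 0.22 (adjusted p = 8.3e-10), and its KO1 libraries held 4, 11 and 17 counts. The neighbours RASEF and FRMD3 on chromosome 9 shared a pattern, and their neighbourhood was higher in KO2 as a whole. RASEF, a Rab-like GTPase gene, was at 9.59, 9.24 and 10.9 CPM in KO2 and 0.128, 0.0633 and 0.0573 CPM in KO1. FRMD3 was at 27.2 ± 0.931 CPM in KO2 and 0.926 ± 0.121 CPM in KO1, and WT lay between the clones for both genes (3.01 and 6.55 CPM).

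ABLIM3, an actin-binding LIM protein gene in a neighbourhood of chromosome 5 higher in KO2 as a whole, is a case where KO1 lay apart. It was at 3.67, 3.00 and 3.85 CPM in KO1, 88.2, 87.5 and 90.7 CPM in KO2 and 77.2 ± 3.23 CPM in WT, a difference of -4.65 ± 0.09 (adjusted p = 5.3e-12). TENM1, a teneurin of neuronal connections, was likewise at 0.917 CPM in KO1 against 10.7 CPM in KO2 and 8.72 CPM in WT. FKBP10, a collagen-folding isomerase gene, was at 2.17, 27.8 and 3.11 CPM in KO1, KO2 and WT, and the neuronal pentraxin receptor gene NPTXR at 4.34, 27.2 and 3.83 CPM. Potassium channel genes KCNQ3 and KCNAB2 differed by -3.01 ± 0.10 and -2.95 ± 0.11. Secreted signals in this group were CCN3 (-2.88) and CSF3, the gene of the granulocyte growth factor G-CSF (-2.65). The interferon-induced gene OASL (-2.51), the ubiquitin ligase gene NEURL1B (-2.39) and TMEM132D-AS1 (-4.05) completed it. TMEM132D-AS1 is antisense to TMEM132D, and without strand information its reads cannot be told from those of its partner.

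**Figure D2:**
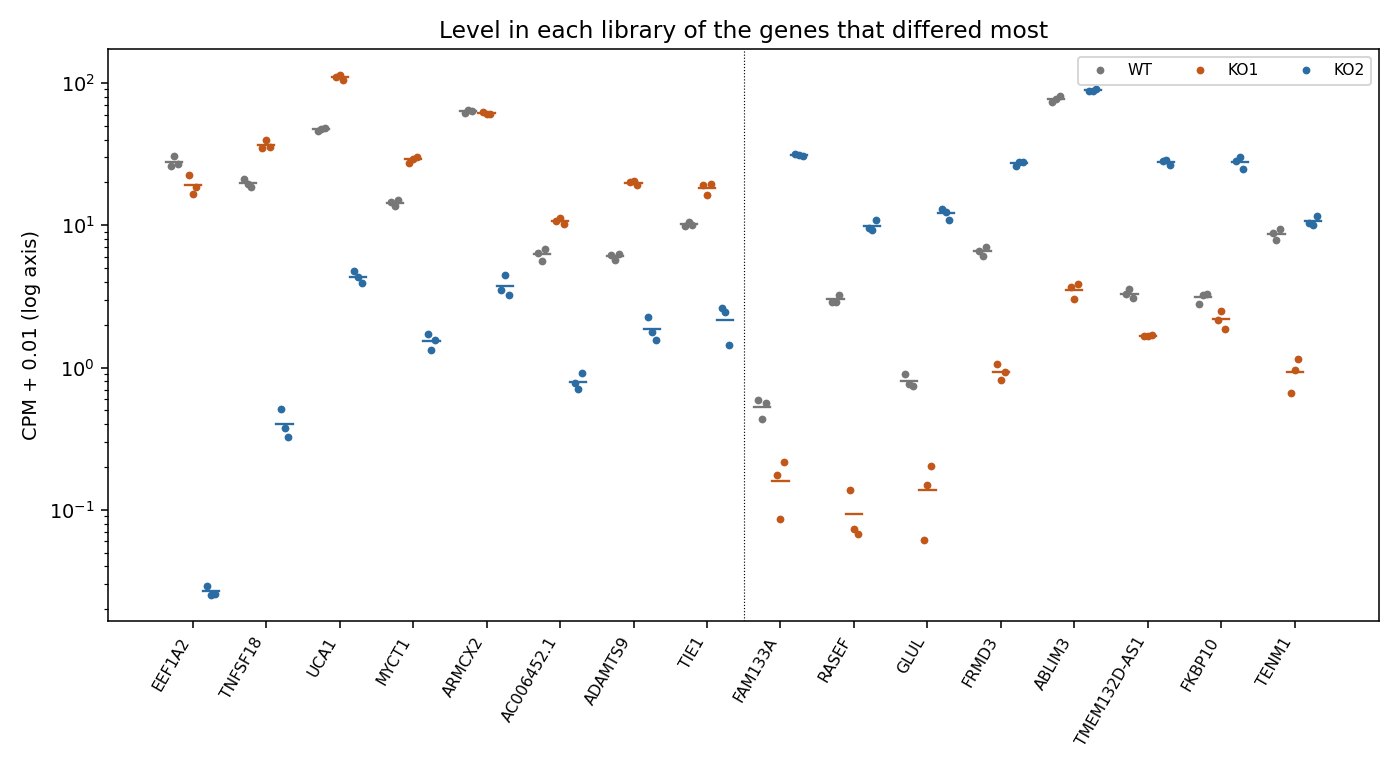
CPM in each library (vertical log axis, 0.01 added) of the 8 genes most above in KO1, left of the dotted line, and the 8 most above in KO2, right of it; points are libraries and bars are means of 3. The KO1 and KO2 points do not overlap for any gene shown, as the choice of the genes required, and WT falls beside KO1 for FAM133A and beside KO2 for ABLIM3.

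Some genes were silent in 1 clone, with at most 3 counts in each of its libraries and at least 1 CPM in each library of the other. Of 61155 symbols, 6 (0.00981%) were silent in KO2 only and 8 (0.0131%) in KO1 only. CT83, a cancer-testis gene, was at 6.92, 6.91 and 6.51 CPM in KO1 and had 0 counts in all KO2 libraries, at least 411-fold lower by a floor of 3 counts over the group. Its neighbour on the X chromosome, the amino acid transporter gene SLC6A14, was at 1.26 CPM in KO1 and also had 0 counts in KO2, at least 76.1-fold lower. MT1A, a metallothionein gene with close relatives, and the noncoding AL353740.1 had 0 counts in KO2 too, and ZXDA had 5 in all. The genes silent in KO1 were the pseudogene ZNF826P, GALNT14, ZNF501, DTX3, TBX20, SCARA3, IYD and RPS6KA6. Of these TBX20, a cardiac transcription factor gene, had 0 counts in KO1 and was at 1.57 CPM in KO2. In WT, EEF1A2 and CT83 were at 1 CPM or more in each library. The other 12 genes met neither that limit nor the limit for silence in all WT libraries. Their WT means ran from 0.044 CPM for AL353740.1, near the detection limit, to 0.81 CPM for SLC6A14.

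The control libraries show which clone lay away from the reference for the genes called at 2-fold or more. Of 1724 such genes, the WT mean lay nearer KO1 for 890 and nearer KO2 for 340. It lay above both clones for 139 and below both for 355. Among the 1011 genes higher in KO2, WT was nearer KO1 for 509, nearer KO2 for 173 and below both for 304. Among the 713 higher in KO1, WT was nearer KO1 for 381 and nearer KO2 for 167. KO2 thus lay farther from WT than KO1 at most of these genes in either direction, a count with no test. Of the 1724 genes, 947 had a mean log2 CPM under 0 and 359 lay between 0 and 2. At such levels the side on which WT falls rests on few reads.

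Part of the divergence followed position along the chromosomes. Windows of 40 neighbouring protein-coding genes were scored, and a window was counted as shifted when at least 30 genes lay on the same side and the median lay at least 0.3 from that of all such genes. Of 9143 windows, 1703 were shifted, 901 higher in KO1 and 802 higher in KO2, and they joined into 19 stretches with 2511 of the 10040 genes placed. By the choice of windows these genes had to differ more often, and 82.6% of them were called against 48.0% outside. Stretches held 36.5% of the called genes placed.

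Chromosomes 15 and 18 were shifted over their whole measured length. On chromosome 15, 305 of 326 genes were higher in KO1 and 6 higher in KO2, with a median of 0.65 relative to all genes. On chromosome 18, 140 of 152 were higher in KO1 and 1 in KO2, with a median of 0.59. Against WT the median on chromosome 15 was 0.19 in KO1 and -0.45 in KO2, and on chromosome 18 it was 0.22 and -0.38. A stretch of the X chromosome from BEX3 to TMEM185A (median 0.62), the outer part of the short arm of chromosome 3 from TRNT1 to EPM2AIP1 (0.49) and the part of chromosome 19 that holds FBXL12, from RFX2 to COLGALT1 (0.41), were also higher in KO1. The other 6 stretches higher in KO1 had medians of 0.30 to 0.37. Higher in KO2 were the end of the long arm of chromosome 2 from PPIG to ING5 (246 genes, -0.55), parts of chromosomes 5 (-0.48), 7 (-0.44), 14 (-0.40) and 9 (-0.38), and 2 stretches of chromosome 10 (-0.35 and -0.31). In the chromosome 19 stretch both clones lay below WT, the KO1 median at -0.45 and the KO2 median at -0.79. On chromosome 2 the KO2 median was 0.50 above WT and the KO1 median -0.06. A stretch over the MHC region of chromosome 6 met the rule with a median of -0.31, but only 3 of its 40 genes were called. The medians of stretches are about 1.2-fold to 1.6-fold differences, far below those of the genes described above.

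Within these stretches lay 2 runs, noticed after the values were seen, in which each protein-coding gene at or above a log2 CPM of 2 was called at 2-fold or more in the same direction. A run on chromosome 15 held 44 such genes in a row, from MYO1E to ZWILCH (59132434 to 66550128, GRCh38), with a median difference of 1.58 and a range of 1.03 to 2.09. The nearest protein-coding gene before it, CCNB2, was at 0.42, and the next after it, SMAD3, at 0.80, both at or above the same level. SMAD6, below that level and between the run and SMAD3, differed by 3.25. The second run, on chromosome 19, held 8 genes from WIZ to C19orf44 (15419980 to 16521352), also with a median of 1.58. AKAP8L just before it was at 0.84, AKAP8 farther out was at 1.37, and CHERP just after it was at 0.16. The 2 medians are 3.00-fold and 2.98-fold differences. They were the only runs of at least 5 such genes. In the chromosome 15 run the KO2 level was a median of 38.6% of WT and was under 50% of it for 41 of 44 genes. The KO1 level was a median of 114% of WT and was above WT for 39. In the chromosome 19 run the corresponding medians were 40.8% and 121%.

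Several of the most abundant transcripts that differed lie in these runs. ANXA2, which encodes the membrane-binding protein annexin A2, was at 4084, 4464 and 4203 CPM in KO1, 1690, 1664 and 1693 CPM in KO2 and 3639 ± 118 CPM in WT. The ribosomal protein gene RPL4 was at 2277, 2267 and 2258 CPM in KO1 and 883, 877 and 861 CPM in KO2, a difference of 1.39 ± 0.04 (adjusted p = 6.0e-11); it has processed pseudogenes that may share reads. TPM1, which encodes tropomyosin 1, was at 128 ± 4.68 CPM in KO1 and 32.5 ± 2.59 CPM in KO2. The cyclophilin gene PPIB, at 181 and 42.9 CPM, and the MEK1 gene MAP2K1, at 172 and 53.8 CPM, also lie in the chromosome 15 run; both were picked after their values were seen. The chromosome 19 run holds TPM4, a second tropomyosin gene, at 4176, 4324 and 4158 CPM in KO1 and 991, 977 and 1012 CPM in KO2. TPM4 had the largest CPM difference of all genes higher in KO1, 2.10 ± 0.04 on the log2 scale (adjusted p = 5.3e-12), and WT was between the clones at 2412 CPM. The transcription factor gene KLF2 (1.89 ± 0.14) and the trafficking gene RAB8A (1.48 ± 0.05) lie in the same run, and UCA1 lies within its bounds.

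**Figure D3:**
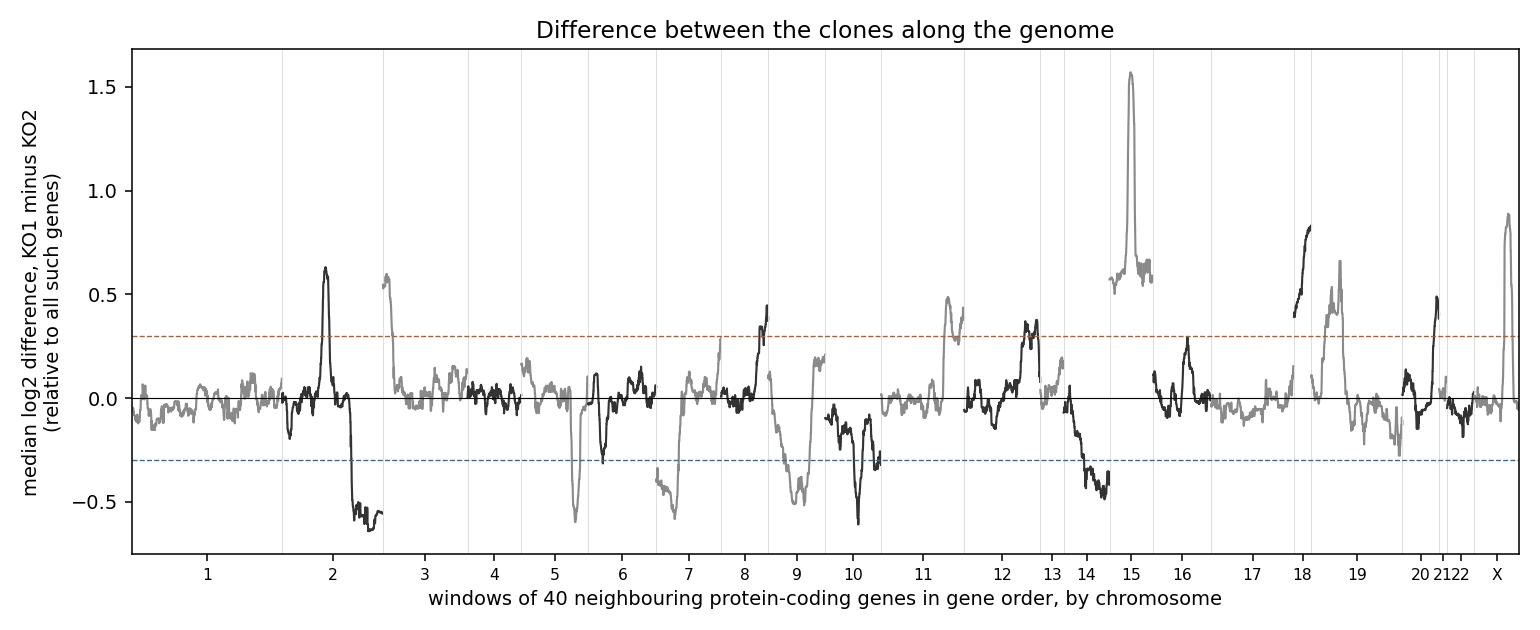
Median log2 difference (KO1 minus KO2, relative to all genes placed, vertical axis) in windows of 40 neighbouring protein-coding genes, in gene order along each chromosome (horizontal axis); dashed lines mark 0.3 either way. Chromosome 15 lies above 0.50 throughout with a narrow peak at 1.57, chromosome 18 climbs from 0.39 to 0.83, and the end of chromosome 2 lies near -0.56.

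Of the tested genes with a known position outside the stretches, 5321 of 12814 (41.5%) were still called, 2592 higher in KO1 and 2729 higher in KO2, and 1053 of them were called at 2-fold or more. Another 472 tested genes, LRATD2 and CCN3 among them, had no position under their symbol, and the counts of list members outside the stretches include any such gene. Gene lists are described beside all tested genes, of which 23.9% were higher in KO1 and 23.4% in KO2 with a median of 0.01. Most list members are protein-coding, and such genes were called more often. Of the 10040 placed protein-coding genes at a log2 CPM of at least 2, 3127 were higher in KO1 and 2558 in KO2, 56.6% in all. No set test was run.

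Regulatory sequence of members from 3 stress and defence programmes is printed first, since each programme is known for a short promoter element. Many interferon-stimulated genes carry the interferon-stimulated response element (searched as GAAA NN GAAA without spaces, N being any base). Many NRF2 targets carry the antioxidant response element (searched as TGACNNNGC). Many genes of endoplasmic reticulum (ER) chaperones carry the ER stress response element (searched as CCAAT, then NNN NNN NNN, then CCACG). All were searched on both strands of RefSeq promoters from 250 bases before to 50 after the start (GRCh38.p14). The 250 bases before the start are shown 5′ to 3′ on the gene's strand, with matches in capitals; adjoining capitals are overlapping matches.
The first 2 are from interferon genes higher in KO2, IFIT1 at chr10:89392373-89392622 (plus strand) and BST2 at chr19:17405631-17405880 (minus strand), and the next 2 from interferon genes higher in KO1, IFI27 at chr14:94110486-94110735 (plus strand) and GBP1 at chr1:89065209-89065458 (minus strand).
IFIT1: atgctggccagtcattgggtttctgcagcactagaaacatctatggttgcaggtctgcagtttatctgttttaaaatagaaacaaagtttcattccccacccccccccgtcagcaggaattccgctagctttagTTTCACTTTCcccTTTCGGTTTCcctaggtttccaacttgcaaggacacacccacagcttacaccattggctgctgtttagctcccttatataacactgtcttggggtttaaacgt
BST2: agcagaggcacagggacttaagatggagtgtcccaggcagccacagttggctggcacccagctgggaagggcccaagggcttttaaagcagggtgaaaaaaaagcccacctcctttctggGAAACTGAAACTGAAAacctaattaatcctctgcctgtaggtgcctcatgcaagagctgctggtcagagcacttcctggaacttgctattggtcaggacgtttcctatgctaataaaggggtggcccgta
IFI27: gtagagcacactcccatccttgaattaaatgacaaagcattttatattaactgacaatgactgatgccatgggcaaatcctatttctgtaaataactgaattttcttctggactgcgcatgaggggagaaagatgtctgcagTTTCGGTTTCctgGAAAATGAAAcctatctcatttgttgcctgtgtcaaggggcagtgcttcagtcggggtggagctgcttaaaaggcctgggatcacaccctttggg
GBP1: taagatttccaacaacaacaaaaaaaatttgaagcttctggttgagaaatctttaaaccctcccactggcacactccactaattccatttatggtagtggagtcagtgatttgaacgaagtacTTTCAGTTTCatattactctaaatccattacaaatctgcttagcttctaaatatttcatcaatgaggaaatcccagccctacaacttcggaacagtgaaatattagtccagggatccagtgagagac
The ER genes, both higher in KO1, are HSP90B1 at chr12:103930160-103930409 (plus strand) and XBP1 at chr22:28800570-28800819 (minus strand).
HSP90B1: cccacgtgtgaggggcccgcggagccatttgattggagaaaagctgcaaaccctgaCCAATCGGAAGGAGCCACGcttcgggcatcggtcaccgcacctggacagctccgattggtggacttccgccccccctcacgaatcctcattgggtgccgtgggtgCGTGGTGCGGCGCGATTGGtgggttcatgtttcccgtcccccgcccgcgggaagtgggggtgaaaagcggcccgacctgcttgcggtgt
XBP1: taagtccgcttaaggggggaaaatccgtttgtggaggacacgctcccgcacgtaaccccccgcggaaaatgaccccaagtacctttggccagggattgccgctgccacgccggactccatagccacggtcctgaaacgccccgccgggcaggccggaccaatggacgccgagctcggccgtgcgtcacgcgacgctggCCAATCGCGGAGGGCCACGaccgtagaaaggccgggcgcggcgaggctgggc
The NRF2 targets, both higher in KO2, are ME1 at chr6:83431052-83431301 (minus strand) and PGD at chr1:10398814-10399063 (plus strand).
ME1: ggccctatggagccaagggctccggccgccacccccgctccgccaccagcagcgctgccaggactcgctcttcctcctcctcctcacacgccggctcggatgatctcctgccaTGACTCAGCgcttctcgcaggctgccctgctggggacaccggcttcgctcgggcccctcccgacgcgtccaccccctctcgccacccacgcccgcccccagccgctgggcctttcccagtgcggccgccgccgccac
PGD: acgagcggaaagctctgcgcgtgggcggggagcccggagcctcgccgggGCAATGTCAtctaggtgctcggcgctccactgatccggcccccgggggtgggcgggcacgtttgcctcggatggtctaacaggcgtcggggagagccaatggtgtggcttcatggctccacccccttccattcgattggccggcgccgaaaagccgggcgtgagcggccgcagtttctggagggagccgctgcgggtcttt

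The interferon element was found in 24 of the 36 tested interferon genes that have a promoter entry. It was in 3.65% of all promoters and 2.95% of those of tested genes. Of the 24, 11 were higher in KO2, 9 higher in KO1 and 4 not called, so genes with a match lay on both sides. The ER element was in 5 of 22 (0.0806% of all promoters and 0.125% of those of tested genes), of which 4 were higher in KO1 and 1 was not called. The antioxidant element was in 5 of 21, all higher in KO2, with 13.6% of all promoters and 15.2% of those of tested genes holding it. With or without a match, 20 of 25 tested ER genes were higher in KO1 and 22 of 31 tested NRF2 targets higher in KO2. Whether members with a match differed from the rest was not tested. A match says only that these letters are in the window.

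Genes of ER protein folding were higher in KO1. When unfolded protein builds up in the ER, sensors there switch on genes for chaperones and for the disposal of misfolded protein. Of 25 tested members 20 were higher in KO1, 2 higher in KO2 and 3 not called, with a median of 0.33. Outside the stretches 14 of 17 were higher in KO1 and 0 in KO2. HERPUD1, which acts in the degradation of ER proteins, was at 63.9, 63.8 and 66.7 CPM in KO1, 29.4, 27.4 and 28.1 CPM in KO2 and 48.8 CPM in WT. Its difference was 1.21 ± 0.05 (adjusted p = 4.1e-09) and it lies in no stretch. The chaperone gene HYOU1 differed by 1.01 ± 0.04, the disulfide isomerase gene PDIA3 by 0.91 ± 0.04 and EDEM1, which marks misfolded glycoproteins for disposal, by 0.91 ± 0.05; these 3 lie in stretches higher in KO1. The chaperone gene HSP90B1, outside any stretch, was at 1263, 1386 and 1311 CPM in KO1 and 864, 853 and 899 CPM in KO2, and WT, at 840 ± 24.9 CPM, was nearer KO2. XBP1, a transcription factor of the response, was at 82.4 and 62.0 CPM.

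NRF2 targets were higher in KO2. NRF2 is the transcription factor that raises genes of glutathione and thioredoxin metabolism and of NADPH supply under oxidative stress. Of 31 tested members 22 were higher in KO2, 3 higher in KO1 and 6 not called, with a median of -0.44, and outside the stretches 20 of 27 were higher in KO2 and 2 in KO1. TRIM16L was at 51.1, 48.0 and 46.0 CPM in KO2 against 13.6, 13.4 and 13.1 CPM in KO1 and 12.7 CPM in WT. ME1, the malic enzyme that makes NADPH, was at 31.6, 30.6 and 32.1 CPM in KO2 and 11.6 ± 0.892 CPM (SD, n = 3) in KO1. In both genes the KO1 libraries lay near the controls and the KO2 libraries stood apart. PGD, of the pentose phosphate pathway, differed by -0.62 ± 0.04 (adjusted p = 1.6e-07) and the quinone reductase gene NQO1 by -0.61 ± 0.04 (adjusted p = 2.7e-07).

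Interferon-stimulated genes were split. Of 47 tested, 23 were higher in KO2, 11 higher in KO1 and 13 not called, with a median of -0.27, but outside the stretches 13 were higher in KO2 and 8 in KO1 of 34, with a median of 0.03. IFIT1, which binds viral RNA, was at 43.5, 46.0 and 44.5 CPM in KO2, 8.83, 9.60 and 8.97 CPM in KO1 and 18.9 CPM in WT. IFIT2, in the same gene cluster and stretch of chromosome 10, differed by -1.46 ± 0.06. OASL, OAS1 (-0.98) and OAS2 (-0.77) lie in a stretch of chromosome 12 that was higher in KO1 but were themselves higher in KO2, while OAS3, in the same stretch, was higher in KO1 (0.49). BST2, which tethers virus particles to the cell surface, was lower in KO1 (3.76, 3.00 and 3.50 CPM) than in KO2 (14.1, 15.9 and 13.5 CPM) and WT (15.7 CPM). IFI27 went the other way, at 7.44, 7.14 and 7.69 CPM in KO1 and 1.34, 1.53 and 1.09 CPM in KO2 (2.50 ± 0.13; adjusted p = 1.9e-08), as did GBP1 at 27.8 and 12.3 CPM. OAS1, OAS2, OAS3, IFI27, GBP1, HSP90B1 and XBP1 were chosen after their values were seen.

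**Figure D4:**
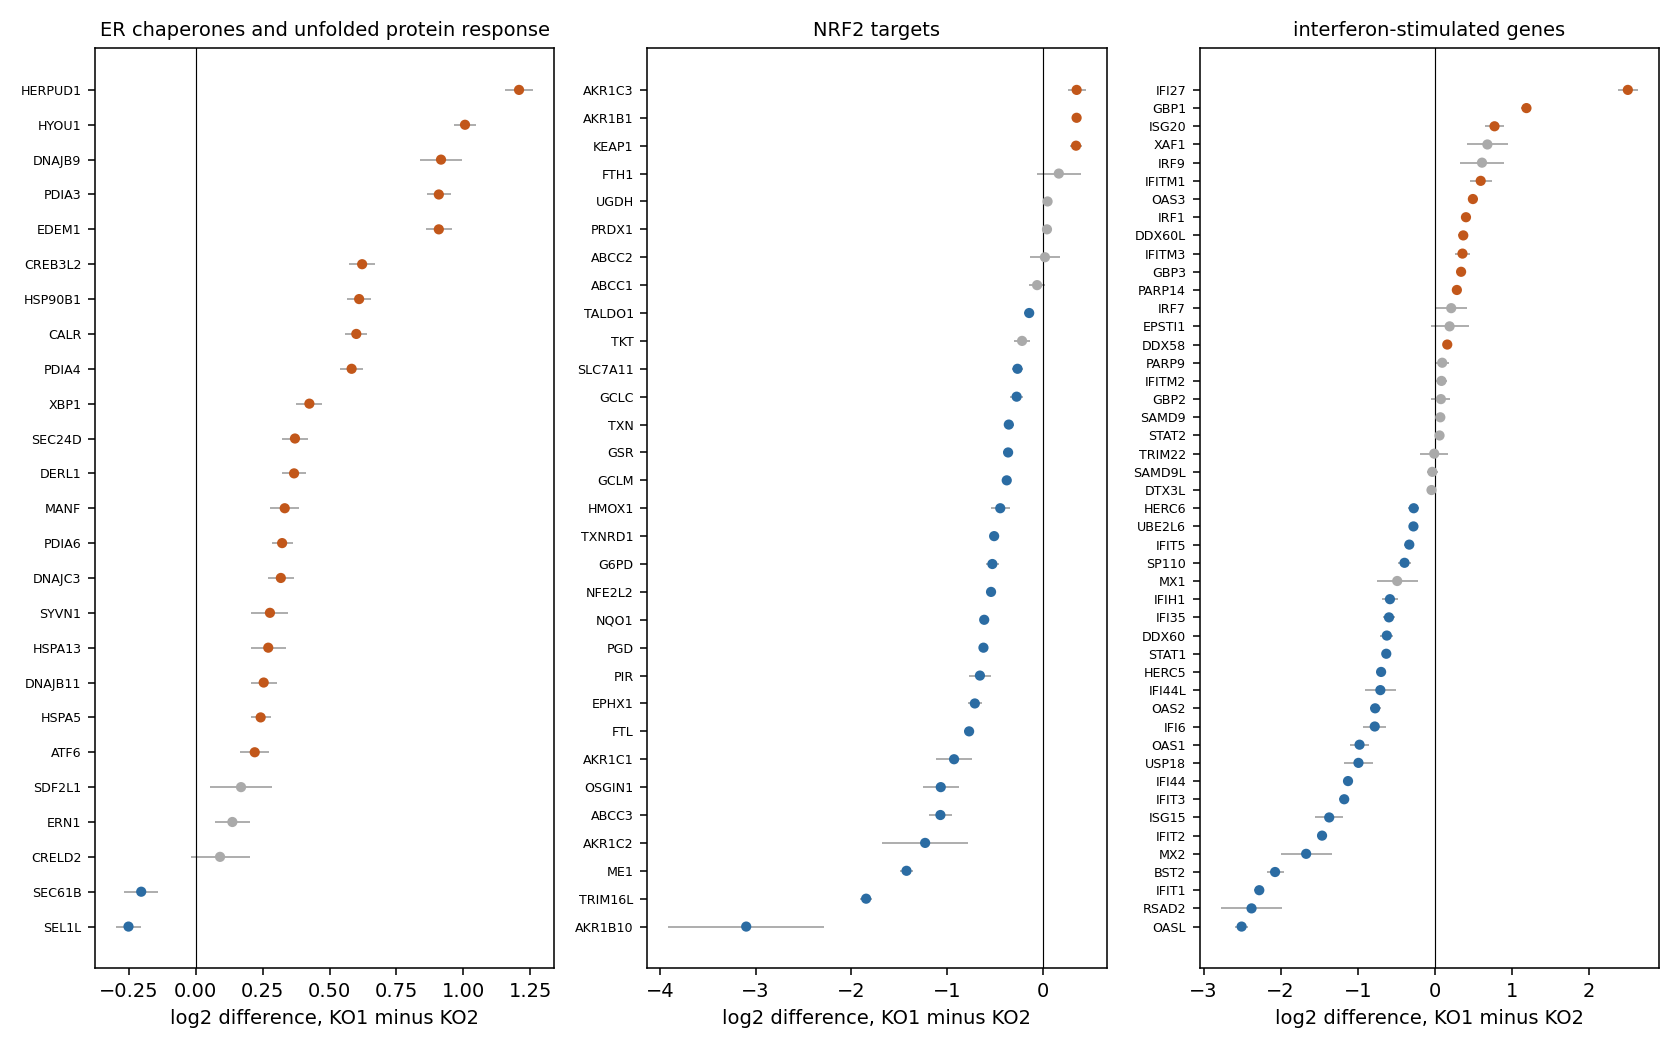
Log2 difference (KO1 minus KO2, horizontal axis, standard error as bars) of each tested member of 3 gene lists (rows), coloured where called. Of the ER list 20 of 25 members are called to the right, of the NRF2 list 22 of 31 to the left, and interferon genes fall on both sides.

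Of 28 NF-kB targets and cytokines 15 were higher in KO1 and 6 in KO2, with a median of 0.24, and outside the stretches 10 of 20 were higher in KO1 and 4 in KO2. Chemokines were split, with 5 of 13 higher in KO1 and 5 in KO2 (median -0.07). IRAK2, a kinase of interleukin-1 signalling, was at 40.2 ± 1.81 CPM in KO1 and 17.9 ± 0.515 CPM in KO2, and the adhesion receptor gene ICAM1 at 56.8 ± 4.04 and 30.5 ± 2.06 CPM; both lie in stretches higher in KO1. CSF3 and IL11, a cytokine gene of the interleukin-6 family at 49.9 CPM in KO1 and 87.8 CPM in KO2, were higher in KO2. Of 20 genes of MHC class I presentation 9 were higher in KO1, 0 higher in KO2 and 11 not called, and 9 of the 20 lie outside the stretches, where 5 were higher in KO1. B2M, the light chain of class I molecules, was at 275, 329 and 281 CPM in KO1, 168, 168 and 166 CPM in KO2 and 190 CPM in WT, and it lies on chromosome 15. ERAP1, which trims peptides in the ER, differed by 0.65 ± 0.05 and lies in no stretch. Surface genes of immune evasion were mixed (8 of 25 higher in KO1 and 5 in KO2, and 5 each way of 18 outside the stretches), with CD274, the gene of PD-L1, at 48.1 ± 2.80 CPM in KO1, 20.9 ± 0.783 CPM in KO2 and 40.7 CPM in WT.

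Of 26 metalloproteinases and their inhibitors 15 were higher in KO1 and 4 in KO2 (median 0.37), and outside the stretches 8 and 3 of 17. The collagenase gene MMP1 was at 2680, 3077 and 2784 CPM in KO1, 1557, 1498 and 1508 CPM in KO2 and 1101 CPM in WT. MMP14, a membrane-bound collagenase gene, was at 411 ± 18.1 and 190 ± 11.3 CPM, but TIMP3, an inhibitor of these enzymes, was also higher in KO1, at 160 ± 3.79 against 46.9 ± 1.97 CPM. Of 21 cathepsins and genes of plasminogen activation 12 were higher in KO1 and 5 in KO2, with 6 and 2 of 12 outside the stretches, and the urokinase gene PLAU (1.31 ± 0.04) and the tissue activator gene PLAT (1.08 ± 0.05) were among the former. Of 17 integrins 8 were higher in KO1 and 5 in KO2, with 7 and 4 of 14 outside the stretches. ITGA6 was at 1107 ± 30.8 CPM in KO1 and 606 ± 33.4 CPM in KO2, although it lies in the stretch of chromosome 2 that was higher in KO2.

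Of 35 actin, focal adhesion and caveola genes 16 were higher in KO1 and 12 in KO2, with 11 and 4 of 21 outside the stretches. TPM4, TPM1 and the actin bundler gene PLS3 (1.75 ± 0.05, on the shifted stretch of the X chromosome) stood against ABLIM3. Of 10 basal keratins and markers 7 were higher in KO1 and 1, EGFR, was higher in KO2, at 801, 795 and 856 CPM against 461, 452 and 465 CPM in KO1. EGFR lies in the stretch of chromosome 7 that was higher in KO2. Outside the stretches 5 of 7 were higher in KO1 and 0 in KO2. Of 17 epithelial genes 7 were higher in KO1 and 1 in KO2, with 6 and 1 of 14 outside the stretches, and the desmosome gene DSP (0.69 ± 0.05) and the tight junction gene CLDN1 (0.76 ± 0.06) were among them. Among ligands and regulators of the EGF receptor, AREG was at 16.4, 20.6 and 17.1 CPM in KO1 and 4.92, 4.28 and 3.53 CPM in KO2, while TGFA was at 59.7 ± 2.09 and 133 ± 3.78 CPM. ERRFI1, a feedback inhibitor of the receptor, was higher in KO1 by 1.07 ± 0.04.

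Genes of neuronal adhesion were higher in KO2. Of 22 tested 13 were higher in KO2 and 4 in KO1, with a median of -0.61, and 11 of 18 outside the stretches were higher in KO2. CNTN1 was at 2.72 ± 0.364 CPM in KO2 and 0.721 ± 0.0928 CPM in KO1, and NRCAM at 8.59 ± 0.500 and 3.85 ± 0.357 CPM. Of 20 tested clustered protocadherins, adhesion genes arranged in tandem on chromosome 5, 9 were higher in KO2 and 1 in KO1. PCDHB16 was at 2.76, 2.96 and 2.43 CPM in KO2 and 0.0641, 0.0760 and 0.126 CPM in KO1, and WT, at 0.110 CPM, lay beside KO1. The copies in this cluster are alike in sequence, and their reads may be shared. HOX genes, which set position along the body axis, were higher in KO2 at 7 of 14 and in KO1 at 1, and outside the stretches at 4 of 10 and 0. Zinc finger genes named ZNF on chromosome 19 were higher in KO2 at 82 of 213 and in KO1 at 28 (median -0.18). Those on other chromosomes were higher in KO2 at 49 of 225 and in KO1 at 70 (median 0.07).

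Most replication-dependent histone genes were not called. Of 19 tested, 6 were higher in KO1, 0 higher in KO2 and 13 not called, 31.6% called in all against 47.3% of tested genes. None of the 19 lies in a stretch. HIST1H2AC was at 47.7 ± 1.99 CPM in KO1 and 15.4 ± 0.599 CPM in KO2, and HIST1H1C at 52.6 ± 2.25 and 27.2 ± 1.22 CPM. Of 40 genes of mitosis 21 were higher in KO2 and 5 in KO1 (median -0.16), and outside the stretches 16 of 27 were higher in KO2 and 0 in KO1. ANLN, of the cleavage furrow, was at 1033 ± 53.2 CPM in KO2 and 539 ± 18.5 CPM in KO1, and KIF11, a spindle motor gene, at 262 ± 10.1 and 137 ± 7.10 CPM; both lie in stretches higher in KO2. Of 50 genes of replication licensing, forks and checkpoints, 13 were higher in KO2, 6 higher in KO1 and 31 not called, 38% in all against 47.3% of tested genes, and outside the stretches 10 and 3 of 44. Of 30 Fanconi anaemia and crosslink repair genes 12 were higher in KO1 and 11 in KO2, none of them by 2-fold, and outside the stretches 8 and 10 of 25.

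Of 35 genes of the activin, TGF-beta and BMP pathway 17 were higher in KO1 and 5 in KO2, and outside the stretches 10 of 23 were higher in KO1 and 2 in KO2. SMAD3 and the inhibitory SMAD6 lie on chromosome 15, and SMAD2 and SMAD4 on chromosome 18. SMAD4, the shared partner of the signalling SMADs, was at 56.8, 61.1 and 60.8 CPM in KO1 and 32.8, 32.8 and 34.2 CPM in KO2. SMAD2 differed by 0.79 ± 0.05 and SMAD3 by 0.80 ± 0.04. The medians of chromosomes 18 and 15, relative to all genes, were 0.59 and 0.65. SMAD6 differed by 3.25 ± 0.17 (3.96 against 0.414 CPM).

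**Figure D5:**
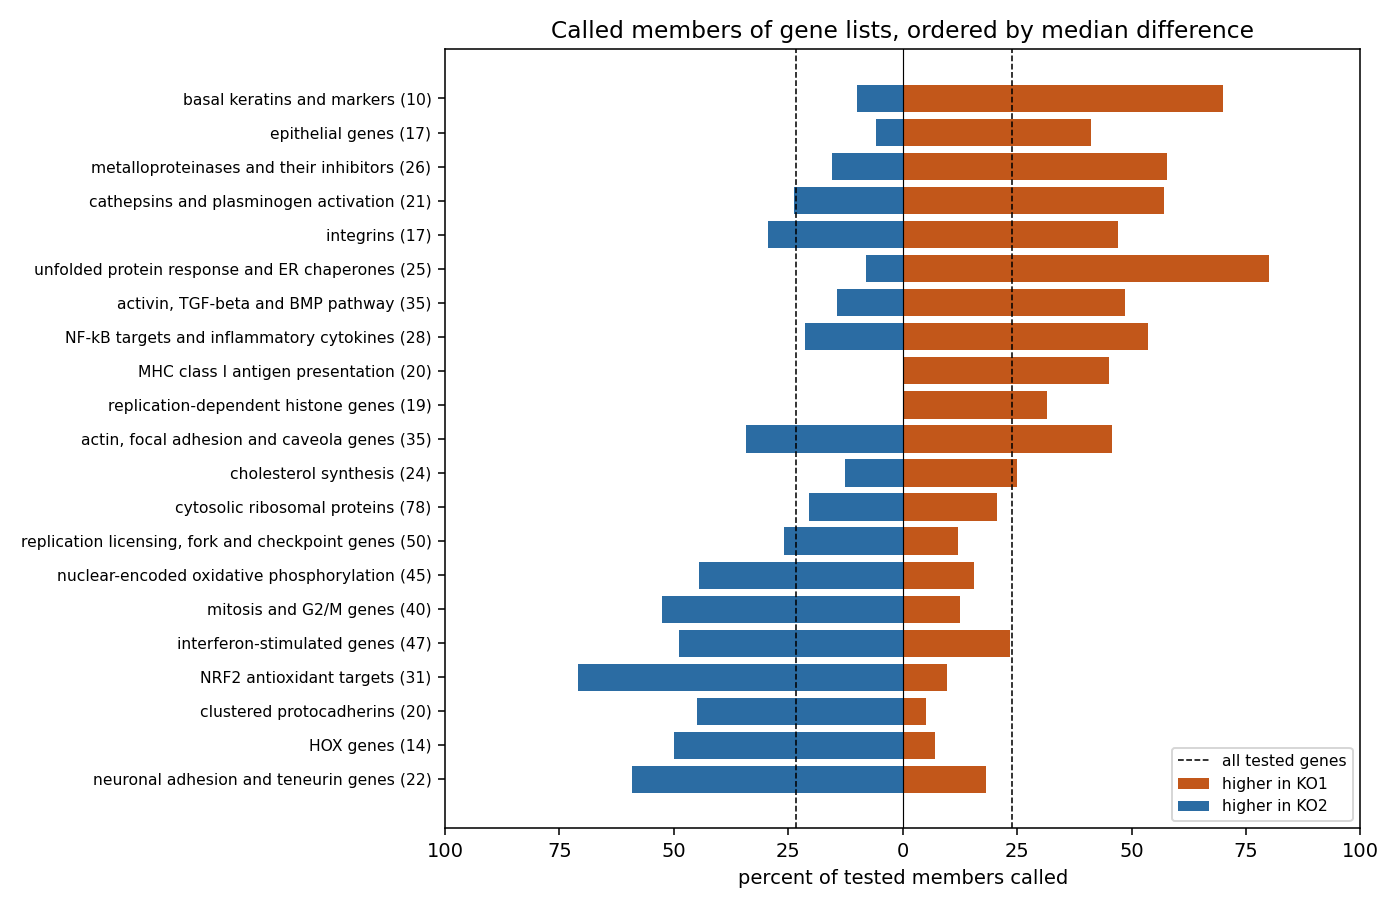
Percent of tested members of 21 gene lists (rows, number tested in brackets) called higher in KO1 (right) or higher in KO2 (left), ordered by median log2 difference, with dashed lines at 23.9% and 23.4%, the share over all tested genes. ER chaperones reach furthest to the right with 20 of 25 members and NRF2 targets furthest to the left with 22 of 31.

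Other abundant transcripts differed by smaller factors, near or below 2-fold. HSP90AA1, the inducible cytosolic HSP90 gene, was at 7132, 7073 and 7468 CPM in KO2 and 4524, 4925 and 4736 CPM in KO1, and it lies in the shifted stretch of chromosome 14. The dynein heavy chain gene DYNC1H1, in that stretch too, differed by -1.08 ± 0.06. The glycolytic gene PKM, on chromosome 15 outside the run, differed by 0.51 ± 0.04, and the thrombospondin gene THBS1 on that chromosome by 0.98 ± 0.04. The mitochondrially encoded share of all counts was 3.52% ± 0.39 in KO1 and 4.81% ± 0.50 in KO2 (SD, n = 3), a difference of -1.29 percentage points. No libraries overlapped, and the exact two-sided permutation p was 0.10, the smallest that 3 against 3 allows. Of 13 mitochondrially encoded genes 6 were higher in KO2, among them MT-CO3 (-0.68 ± 0.11; adjusted p = 0.0024). The part of this share in the other differences was not tested. Of 78 tested cytosolic ribosomal protein genes 16 were higher in each clone, but outside the stretches 3 of 59 were higher in KO1 and 12 in KO2.

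Of the marker lists of other cell types, those of leukocytes, fibroblasts, neurons and adipocytes were low in both clones. Summed over the list, leukocyte markers were at 2.14 to 3.00 CPM in KO1 libraries and 2.10 to 4.57 CPM in KO2 libraries, and 1 of 6 tested was called. Endothelial markers were higher than these, summing to 30.2 to 34.5 CPM in KO1 libraries and 28.0 to 31.3 CPM in KO2 libraries. None of 5 endothelial and 2 fibroblast markers was called. The endothelial list does not hold TIE1, the endothelial receptor gene named above, which was higher in KO1 by 3.10. Of 4 neuronal markers 1 was higher in KO2, and of 2 adipocyte markers 1 was higher in KO1, with summed levels of 1.30 to 1.57 CPM in KO1 and 0.205 to 0.364 CPM in KO2. Luminal breast markers were at 879 to 1016 CPM in KO1 and 949 to 1036 CPM in KO2, with 3 of 6 higher in KO1 and 1 in KO2. The short list of basal breast markers, which includes EGFR, was at 453 to 467 CPM in KO1 and 796 to 857 CPM in KO2. Of its 3 tested members 1 was higher in KO1 and 1 in KO2, unlike the longer basal list above. The part of these markers in the other differences was not tested. Markers of the line itself were present, at 7354 to 7531 CPM in KO1 and 8479 to 8615 CPM in KO2 for the list with VIM, CD44 and EGFR.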

How the data were processed

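RNA for the 9 libraries was extracted on RNeasy columns and made into Illumina TruSeq libraries, per the labels' protocols. Per the file headers, the deposited values are raw read counts per gene symbol from HISAT2 alignments, with no normalization. HISAT2 and a read trimmer, Trim Galore, are listed per the submitters' processing notes, as are the builds mm10, hg38 and GRCm38 whose use is left unsaid. The counting tool, annotation, strand setting and treatment of reads with several matches were not stated. Without strand, antisense pairs cannot be separated.

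The 6 knockout libraries were tested with edgeR 4.0.16 in R 4.3.3, by the quasi-likelihood test with robust dispersion, TMM scaling and edgeR's default filter on low counts, and p-values were adjusted by Benjamini-Hochberg over all 17398 tested genes. Calls needed an adjusted p under 0.05. Printed CPM values use TMM factors of all 9 libraries. Positions came from GENCODE (GRCh38) and promoters from RefSeq (GRCh38.p14), in which 36, 22 and 21 of the tested interferon, ER and NRF2 genes were matched. Named genes were FBXL12 and FANCD2, the 15 with the largest difference each way among those called at 2-fold with a log2 CPM of at least 2 and no overlap, up to 8 silent genes and 6 by CPM difference each way, 4 per list by smallest p, and 3 per stretch, of which a part is described. The members, lists and rules were chosen with earlier results of these data known. The test was also run on simulated counts with few changed genes and a constant dispersion. These data differ at far more genes, so that run does not cover the calls made here. Libraries of a clone differed beyond counting noise (chi-square per degree of freedom 5.85 to 28.7), so each was kept as 1 sample. Alternatives were DESeq2 1.42.0, limma-voom (limma 3.58.1), other scaling and filters, all libraries in the fit, a GC correction, a replicate block, and leaving out each library. Results of some genes are not reported here.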

Additional observations from a re-analysis of the deposited data

How the results depend on the processing

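The count of called genes stayed between 7199 and 9525 under other tools, scalings and filters, and between 6867 (without KO1 replicate 3) and 8398 (without KO1 replicate 2) with 1 library left out. With at least 1 CPM required in 3 libraries, 864 genes were called at 2-fold or more, 389 higher in KO1 and 475 higher in KO2, from fewer genes tested. Outside the chromosomal stretches, an alternative chosen after seeing the data, 5482 genes were called with the 472 of unknown position counted in, 1129 at 2-fold or more. Upper quartile scaling put 43.8% of called genes in the direction of KO1, against 50.5% with TMM. It moved the medians of 26 gene lists by at least the spread among libraries of a clone and left 34 within it. Several medians near the middle changed sign, among them that of the EGF receptor list, from 0.04 to -0.01. Leaving out KO2 replicate 3 moved 13 list medians and left 47. The cause was not tested. Same-numbered libraries correlated at 0.24, -0.37 and 0.35 in their deviations from the clone means. Differently numbered libraries correlated at -0.49 to 0.43. Deviations from a mean of 3 depend on each other, so these values cannot decide whether the numbers pair the libraries. The fit with a replicate block called 7751 genes. The mitochondrial difference ranged from -1.52 to -1.0 percentage points with 1 library left out, and the exact permutation p was 0.20 without KO2 replicate 1, above the smallest that design can give (0.10), which the other 5 gave. Genes under a log2 CPM of 0 were the least precise.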

Other observations

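Some further gene lists are given here by their counts, beside 23.9% of all tested genes higher in KO1 and 23.4% higher in KO2. Among 10040 placed protein-coding genes at a log2 CPM of at least 2, 3127 were higher in KO1 and 2558 in KO2. Nuclear-encoded oxidative phosphorylation genes, the subunits of the respiratory chain and ATP synthase, were higher in KO2 at 20 of 45 and in KO1 at 7 (median -0.10), and outside the chromosomal stretches at 13 and 1 of 29. Proteasome subunits were higher in KO2 at 12 of 31 and in KO1 at 2 (outside the stretches 9 and 0 of 25), and p53 targets were higher in KO2 at 10 of 24 and in KO1 at 4 (outside 8 and 1 of 19). Of 12 tested S100 genes, which encode small calcium-binding proteins, 6 were higher in KO1 and 1 in KO2 (median 0.41). Of 18 NOTCH pathway genes 8 were higher in KO1 and 3 in KO2, and outside the stretches 6 and 1 of 13. The F-box and SCF core list, to which FBXL12 belongs, had 18 of 56 higher in KO1, 15 higher in KO2 and 23 not called, but outside the stretches 11 of 44 were higher in KO1 and 13 in KO2. Cholesterol synthesis genes were higher in KO1 at 6 of 24 and in KO2 at 3, and outside the stretches at 4 and 3 of 20. Genes of complement and the acute phase were higher in KO1 at 7 of 12 and in KO2 at 1. Collagens and extracellular matrix genes were higher in KO1 at 15 of 38 and in KO2 at 10. WNT pathway genes were split, 10 of 30 each way.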
